A study of Rattus norvegicus with 8 samples.

Results

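Calcium/calmodulin-dependent protein kinases II and IV (CaMKII and CaMKIV) and the calcium-activated phosphatase calcineurin were followed through 8 genes in pyramidal neurons captured from the CA3 field of the rat hippocampus. Camk2a, Camk2b, Camk2d and Camk2g encode the alpha, beta, delta and gamma subunits of CaMKII, Camk4 encodes CaMKIV, Ppp3ca and Ppp3cb encode catalytic subunits of calcineurin and Ppp3r1 encodes its regulatory subunit. Members were the probes, controls left out, whose gene name was one of these 8 symbols once a suffix for a predicted or mapped gene had been removed and letter case ignored. All 8 genes were found, of 18365 gene names on the array, on 14 of its 41012 probes.

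The arrays compare neurons of naive Sprague-Dawley rats, which had no treatment, of sham-injured rats, and of rats given a moderate fluid percussion injury, in which a pulse of fluid strikes the exposed dura. Brains were removed 24 h later and neurons were cut from stained sections by laser capture, and those of injured rats were sorted by Fluoro-Jade, a stain for degenerating neurons, into dying (stained) and surviving (unstained) cells. Each of the 4 groups has 2 single-colour Agilent whole-genome arrays, each from amplified RNA of a pool of neurons, about 600 per pool for the dying and surviving neurons. The question of the design is how neurons that degenerate after injury differ in expression from neighbours that do not.

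An array therefore reads a pool drawn from several rats and not a single animal, the age of the rats was not used here, and the labels name 2 amplification kits without saying which pool had which. The naive and sham arrays share 1 slide, 1 scanner date and 1 protocol of the software that processed the scanned images. The surviving and dying arrays share another slide, scanner date and protocol. Injury, slide, scanner date and protocol cannot be told apart in any comparison of an injured group with sham. Surviving against dying and sham against naive are comparisons within a slide.

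The median processed signal over all probes was 28.8 and 22.7 on the naive arrays, 16.5 and 16.4 on the sham arrays, 52.4 and 48.3 on the surviving arrays and 19.4 and 53.0 on the dying arrays, replicate 1 first. Dying replicate 1 thus had less signal than the other 3 arrays of its slide. The scanner software marked 22449 and 22391 probes as well above background on the naive arrays, 20911 and 20193 on the sham arrays, 29347 and 27081 on the surviving arrays, and 24064 and 27997 on the dying arrays. The number of arrays, 2 per group, limits the precision of every value. Values below are the log2 of a probe's signal over the median of its array, so that 0 is the signal of the middle probe and 1 is a doubling.

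The label of pyramidal neurons was checked against 9 marker genes, and all 9 were well above background on both naive and both sham arrays. Of these, 8, 8, 8 and 7 were so on surviving replicates 1 and 2 and dying replicates 1 and 2. The summed signal over the array median of the 7 markers measured on every array was 1058 and 1537 on the naive arrays, 2267 and 1679 on sham, 812 and 378 on surviving and 99.96 and 388 on dying arrays, and the probe of Snap25 contributed the most signal to it. Markers of other cells were also read on every array, including the control arrays. Whether that signal came from other cells or from the captured neurons was not tested.

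CaMKII is a multi-subunit kinase of the postsynaptic density that calcium-bound calmodulin switches on and that then phosphorylates itself and stays active after calcium falls, a property tied to synaptic plasticity in the hippocampus. CaMKIV works in the nucleus, is activated by an upstream CaM kinase kinase and phosphorylates CREB, while calcineurin, a catalytic subunit bound to a regulatory subunit and to calmodulin, removes phosphate from NFAT, dynamin and inhibitors of protein phosphatase 1. Both arms read the same calcium signal with opposite action on phosphorylation, and excess calcium in injured neurons is the setting in which they are usually discussed.

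The 250 bases before the transcription start of each gene were read from RefSeq on GRCr8, where 8 of 8 genes were matched. The core of the cAMP response element, TGACG or CGTCA, was searched on both strands and stands in capitals in the promoters of the 3 genes that hold it. The 4 promoters printed here are those and that of Ppp3ca, which lacks the core. Ppp3ca is the gene with the largest difference from sham in dying neurons. The promoters printed are Camk2a at chr18:56648930-56649179, Ppp3ca at chr2:227839357-227839606, Ppp3cb at chr15:3809012-3809261 and Ppp3r1 at chr14:95769596-95769845, all on the plus strand.
Camk2a: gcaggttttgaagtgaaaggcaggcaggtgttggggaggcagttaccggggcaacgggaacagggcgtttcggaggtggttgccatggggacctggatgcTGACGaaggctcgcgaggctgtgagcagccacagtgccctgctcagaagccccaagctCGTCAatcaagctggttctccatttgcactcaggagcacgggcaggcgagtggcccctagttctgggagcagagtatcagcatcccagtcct
Ppp3ca: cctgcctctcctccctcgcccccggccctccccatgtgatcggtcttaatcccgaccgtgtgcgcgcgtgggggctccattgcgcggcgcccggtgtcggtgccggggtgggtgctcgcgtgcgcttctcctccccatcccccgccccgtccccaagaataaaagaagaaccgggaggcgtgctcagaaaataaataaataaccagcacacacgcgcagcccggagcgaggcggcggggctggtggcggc
Ppp3cb: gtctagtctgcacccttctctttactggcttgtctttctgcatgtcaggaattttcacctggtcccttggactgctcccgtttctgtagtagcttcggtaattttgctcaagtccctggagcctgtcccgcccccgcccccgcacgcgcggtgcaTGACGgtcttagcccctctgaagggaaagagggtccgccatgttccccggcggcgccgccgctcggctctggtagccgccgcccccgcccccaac
Ppp3r1: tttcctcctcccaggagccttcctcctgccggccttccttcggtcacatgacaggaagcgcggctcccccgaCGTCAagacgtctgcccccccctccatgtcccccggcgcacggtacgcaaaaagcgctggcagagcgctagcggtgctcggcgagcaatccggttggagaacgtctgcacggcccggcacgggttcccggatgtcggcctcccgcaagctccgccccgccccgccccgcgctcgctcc
The core was present in 3 of 8 member promoters and in 18.2% of 33469 rat promoters of the same length. Camk2a held 2 matches, 150 and 92 bases before the start, Ppp3cb held 1 at 95 bases and Ppp3r1 held 1 at 178 bases. The full element TGACGTCA, which contains the core on both strands, was in 0 of 8 and in 1.59% of all promoters. The NFAT core GGAAA or TTTCC was in 2 of 8 (Ppp3cb and Ppp3r1) and in 56.9% of all, and the CAAT box CCAAT or ATTGG in 0 of 8 and 34.0% of all. The GC box GGGCGG or CCGCCC was in 6 of 8, all but Camk2a and Camk4, against 30.5% of all. The GC content ran from 44.4% in Camk4 to 80.8% in Camk2g, beside a median of 51.2% over all promoters. These matches describe letters in a window and say nothing of binding.

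Of the 14 member probes, 9 were marked above background on each of the 8 arrays and 2, both for Camk2d, on none. For each gene 1 lead probe, the RefSeq probe with the highest mean, carries the comparisons, and 7 of the 8 lead probes were well above background on every array, so that their testing did not depend on the group in which they were high. Camk2d was not tested. Its probes, for NM_012519 and S69671, ran from -4.37 to -1.33 and from -3.87 to -1.44 with no array well above background, so the delta subunit could not be measured here.

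**Figure D1:**
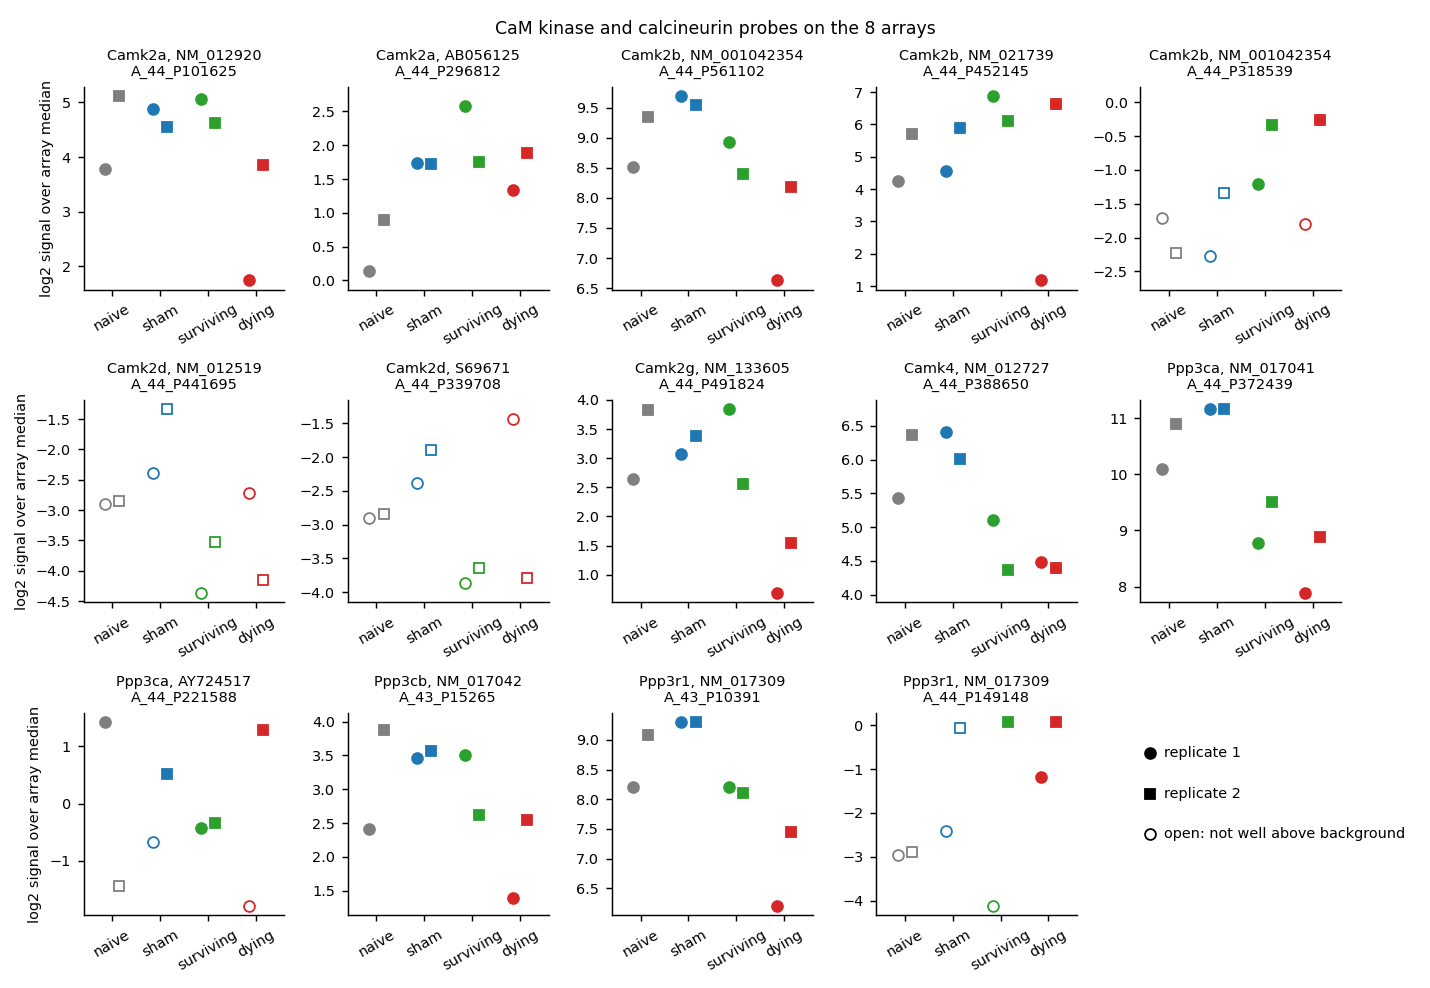
Log2 signal over the array median (vertical axis) of all 14 probes by group (horizontal axis), with a circle for replicate 1, a square for replicate 2 and an open symbol where the probe was not well above background. Dying replicate 1 is the lowest array in the panels of the lead probes of Camk2a (1.74), Camk2b (6.63), Camk2g (0.68), Ppp3ca (7.88), Ppp3cb (1.40) and Ppp3r1 (6.20), and the Camk2d panels hold open symbols only.

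Among the CaMKII subunits, the alpha subunit gene Camk2a (NM_012920) read 3.78 and 5.11 on the naive arrays, 4.87 and 4.54 on sham, 5.06 and 4.63 on surviving and 1.74 and 3.86 on dying arrays. Both dying arrays lay below both surviving and both sham arrays, while surviving and sham overlapped, and the dying replicates were 2.11 apart. Surviving minus dying was 2.04 (SE 0.76, 95% interval 0.30 to 3.79, 2 arrays against 2) with an adjusted p of 0.188, and without dying replicate 1 it was 0.99. A second Camk2a probe, for AB056125 and spotted 10 times, read 0.14 and 0.89 on the naive arrays, 1.73 and 1.72 on sham, 2.59 and 1.75 on surviving and 1.33 and 1.89 on dying arrays. Its dying and surviving arrays overlapped, so the probes of this gene differ in what they show of dying neurons, and both naive arrays lay below the other 6.

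The beta subunit gene Camk2b has 3 probes. The lead probe A_44_P561102 (NM_001042354) read 8.52 and 9.35 on the naive arrays, 9.69 and 9.55 on sham, 8.93 and 8.40 on surviving and 6.63 and 8.17 on dying arrays. The sham arrays were the highest, both surviving arrays lay below them and both dying arrays lay below the surviving ones. Surviving minus dying was 1.27 (SE 0.62, 95% interval -0.16 to 2.69, adjusted p 0.284), and 0.49 without dying replicate 1. The probe for NM_021739 read 4.25 and 5.71 on the naive arrays, 4.55 and 5.89 on sham, 6.87 and 6.11 on surviving and 1.18 and 6.64 on dying arrays. Here dying replicate 2 lay between the surviving arrays and replicate 1 fell far below every other array, a gap of 5.46 between replicates, and surviving minus dying was 2.58 with an SE of 1.51 and an adjusted p of 0.361. The probe A_44_P318539, also for NM_001042354, was well above background only in both surviving arrays (-1.20 and -0.33) and dying replicate 2 (-0.27), and no fold is given for it. Camk2a and the NM_021739 form of Camk2b are genes the study picked on these same arrays, so their values are not independent evidence.

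The gamma subunit gene Camk2g (NM_133605) read 2.63 and 3.83 on the naive arrays, 3.06 and 3.37 on sham, 3.84 and 2.55 on surviving and 0.68 and 1.54 on dying arrays. Both dying arrays were below the other 6, and the naive, sham and surviving arrays overlapped. Surviving minus dying was 2.09 (SE 0.65, 95% interval 0.60 to 3.57) with an adjusted p of 0.145, and it was 1.65 without dying replicate 1 and 2.52 without dying replicate 2. In this comparison Camk2g had the smallest p of the 7 lead probes, and it did not pass the threshold of 0.05.

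For the nuclear kinase, Camk4 (NM_012727) read 5.43 and 6.37 on the naive arrays, 6.41 and 6.003 on sham, 5.11 and 4.36 on surviving and 4.48 and 4.39 on dying arrays. The surviving and dying arrays overlapped and all 4 lay below both sham and both naive arrays, a pattern unlike that of Camk2a or Camk2g, in which surviving and sham overlapped. Surviving minus dying was 0.30 (SE 0.53, 95% interval -0.91 to 1.51, adjusted p 0.785), an interval that includes differences of more than 2-fold, and its sign turned to -0.08 without surviving replicate 1.

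Among the calcineurin subunits, the catalytic gene Ppp3ca (NM_017041) read 10.10 and 10.90 on the naive arrays, 11.15 and 11.16 on sham, 8.78 and 9.51 on surviving and 7.88 and 8.88 on dying arrays. All 4 arrays of injured rats lay below all 4 of uninjured rats, and dying and surviving overlapped by the place of dying replicate 2 just above surviving replicate 1. Surviving minus dying was 0.77 (SE 0.56, 95% interval -0.51 to 2.05, adjusted p 0.463). A second probe, for AY724517, was well above background on 5 arrays, with 1.43 in naive replicate 1, 0.51 in sham replicate 2, -0.42 and -0.35 in surviving neurons and 1.29 in dying replicate 2. Its groups overlapped in all 4 comparisons.

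The other catalytic gene, Ppp3cb (NM_017042), read 2.42 and 3.87 on the naive arrays, 3.47 and 3.57 on sham, 3.51 and 2.63 on surviving and 1.40 and 2.54 on dying arrays. Both dying arrays lay below both surviving arrays, although dying replicate 2 was only just below surviving replicate 2 and above naive replicate 1, and surviving overlapped with sham. For Ppp3cb, surviving minus dying was 1.10 (SE 0.66, 95% interval -0.42 to 2.61, adjusted p 0.375). The regulatory gene Ppp3r1 (NM_017309, probe A_43_P10391) read 8.21 and 9.08 on the naive arrays, 9.31 and 9.30 on sham, 8.20 and 8.10 on surviving and 6.20 and 7.44 on dying arrays. Its surviving replicates were 0.10 apart, both dying arrays lay below them, and both sham arrays above. Surviving minus dying was 1.33 (SE 0.57, 95% interval 0.03 to 2.63, adjusted p 0.229), and without dying replicate 1 it was 0.71. A second Ppp3r1 probe, A_44_P149148, was well above background in surviving replicate 2 (0.08) and both dying arrays (-1.19 and 0.06) only, and its surviving and dying arrays overlapped.

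Read together by comparison, surviving neurons had the higher mean in 7 of 7 lead probes when set against dying neurons, and none passed the adjusted threshold. Of all 12 member probes tested, 10 were higher and 2 lower, and with the mean of all its probes Ppp3r1 was at -0.06. Across the array 0 of 27393 probes tested with limma passed (0% called higher, 0% lower), and 5765 had an unadjusted p under 0.05. Unadjusted, 3 of the 7 lead probes (Camk2a, Camk2g and Ppp3r1) were under 0.05 and higher, beside 10.8% of all probes tested. Groups did not overlap, with surviving higher, for 5 of 7 lead probes, all but Camk4 and Ppp3ca, beside 30.2% of all. The median difference of the 7 was 1.27 and that of all probes tested 0.15. In bulk pools such as these, fewer neurons and less of an RNA per neuron cannot be told apart. The p-values measure the spread between these pools, not between rats.

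The calls in this comparison changed with the array left out. Without dying replicate 2, replicate 1 stands alone and its spread is borrowed from the other arrays. Calls then appeared over the whole array as well as among the lead probes. Camk2b was at 2.04 and Ppp3r1 at 1.96 in that run. The median of the 7 lead probes was 1.96, beside -0.06 for all probes tested. Without dying replicate 1, 0 probes passed and 3861 had an unadjusted p under 0.05, with differences of 1.65 for Camk2g, 0.99 for Camk2a, 0.71 for Ppp3r1, 0.52 for Ppp3cb, 0.49 for Camk2b, 0.34 for Camk4 and 0.27 for Ppp3ca. All 7 kept a positive sign with either dying array left out. By a filter modelled on the methods but applied here to surviving against dying, with a 2-fold difference and replicates within a ratio of 1.5, 604 probes were higher in surviving neurons (1.47%) and 452 lower (1.10%) of 41012, a split that was 427 and 563 under quantile normalization, 499 and 689 with series values and 288 and 15 with normexp. None of the 14 member probes met the limit on replicates, so that filter could not call any of them, and with replicates allowed a 2-fold gap 3 met it and 0 were called. That count was no longer 0 with a dying array left out, which also left no limit on replicates in that group. Calls over the whole array rose then as well. Without dying replicate 1, 4 member probes met the limits and 2 were called. Over the array 3710 of 17136 such probes were called, 1975 higher and 1735 lower. Without dying replicate 2, 3 member probes met the limits and 3 were called. Over the array 6652 of 15486 were then called, 2863 higher and 3789 lower. The lead probe of Camk2a was called higher in surviving neurons whichever dying array was left out. AY724517 of Ppp3ca was called lower in them without replicate 1, and the lead probes of Camk2b and Ppp3r1 higher without replicate 2.

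**Figure D2:**
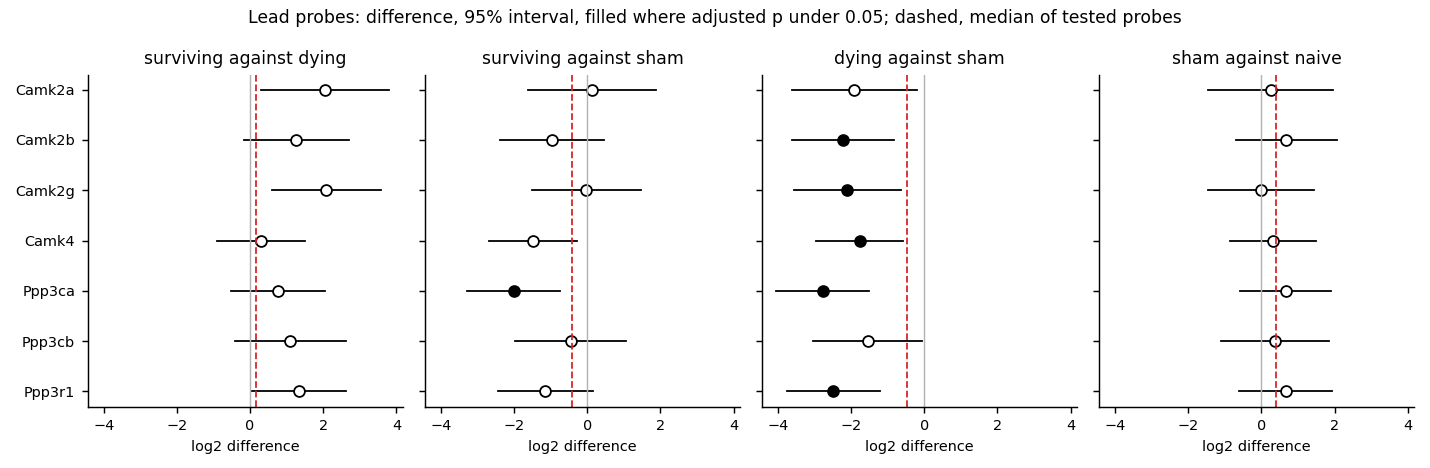
Log2 difference (horizontal axis) of the lead probe of 7 genes in 4 comparisons, with 95% intervals from limma, filled symbols where the adjusted p was under 0.05 and a dashed line at the median of all probes tested. Against sham, filled symbols mark Ppp3ca in surviving neurons (-2.01) and 5 genes in dying neurons (-2.78 to -1.77), counts that become 0 and from 0 to 2 under the other scalings, and neither comparison within a slide has a filled symbol.

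Against sham, dying neurons had 11101 of 25628 probes past the threshold, 3763 higher and 7338 lower, and the median of all probes tested was -0.47, so each difference is also given relative to that shift. Of the 7 lead probes 5 were called lower, beside 28.6% of all probes tested, and 0 higher, beside 14.7%. All 7 had both dying arrays below both sham arrays, beside 45.4% of all, and the median of the 7 was -2.10. Ppp3ca fell by 2.78 (SE 0.55, adjusted p 0.00651), or -2.31 relative to the shift. Ppp3r1 fell by 2.48 (SE 0.56, adjusted p 0.0103), or -2.01 relative to it. Camk2b fell by 2.22 (SE 0.62, adjusted p 0.0213), or -1.75 relative to it. The other 2 called were Camk2g, at -2.10 (adjusted p 0.0295), and Camk4, at -1.77 (adjusted p 0.0268), with -1.63 and -1.30 relative to the shift. Camk2a at -1.91 (adjusted p 0.0685) and Ppp3cb at -1.55 (adjusted p 0.0843) did not pass.

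These calls moved with single arrays, with the scaling and with the choice of probe, while the sign of all 7 differences was negative in every alternative run. Without sham replicate 1 none of the 7 was called, with Ppp3ca at -2.78. Without sham replicate 2 only Ppp3ca (-2.77) was called, and without dying replicate 1 only Ppp3ca (-2.28) and Ppp3r1 (-1.86) were. In each of these runs fewer probes of the whole array were called too. Without dying replicate 2 more probes of the array were called. Camk2a (-2.96) and Ppp3cb (-2.12) then gained a call and Camk4 (-1.72) lost its own. With each array scaled to its 75th percentile the median of all probes tested became 0.25, and Ppp3ca (-2.06) and Ppp3r1 (-1.76) remained called lower, 2 of 7 beside 18.8% of all probes. Quantile normalization moved that median to 0.21 and kept only Ppp3ca (-1.79, adjusted p 0.0389), beside 15.9%. With normexp, which corrects background by a model of signal and noise, 0 probes of the array passed in limma and 2347 had an unadjusted p under 0.05, with Ppp3ca at -3.49. With the mean of all probes of a gene, Ppp3ca (-1.47, adjusted p 0.124), Ppp3r1 (-0.90, adjusted p 0.363) and Camk2b (-0.92, adjusted p 0.389) were not called, and the 2 that were, Camk2g and Camk4, have 1 probe each. Over all alternatives Ppp3ca was called in 21 of 24 and its adjusted p ran from 0.00126 to 0.519, Ppp3r1 in 19 of 24, Camk2b in 15, Camk2g and Camk4 in 14 each, Camk2a in 3 and Ppp3cb in 1. The 24 include alternatives that changed no value of these genes, namely leaving out population outlier spots and taking the brightest probe.

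**Figure D3:**
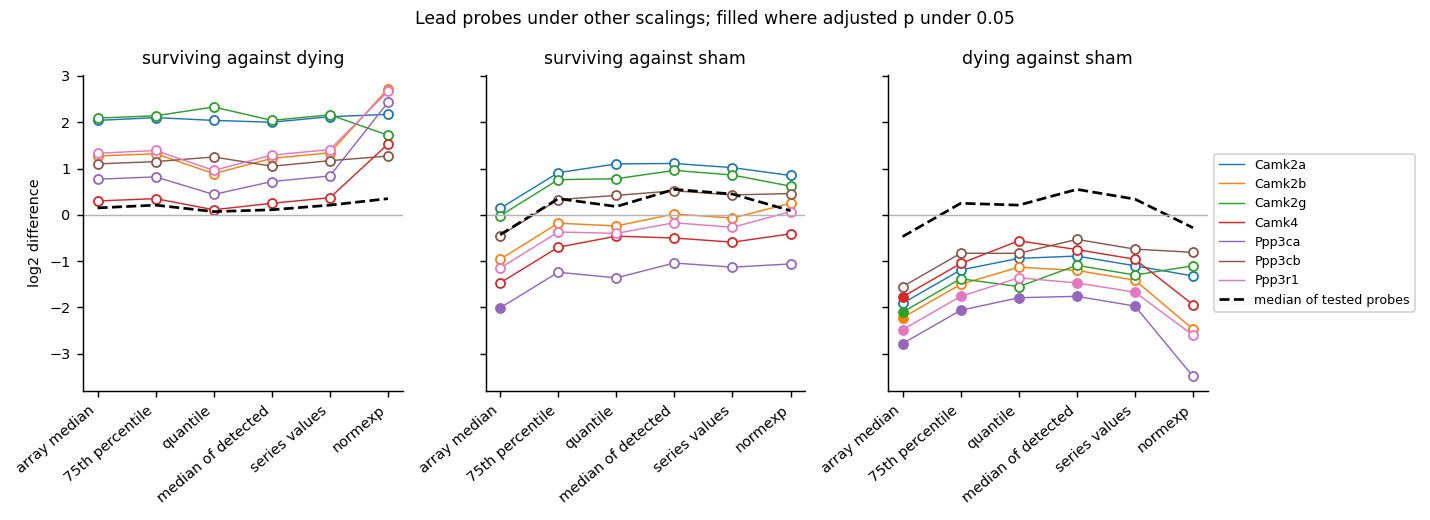
Log2 difference (vertical axis) of 7 lead probes under 6 ways of scaling (horizontal axis) in 3 comparisons, filled where the adjusted p was under 0.05, with a dashed line for the median of all probes tested. In dying against sham every gene stays below 0 while the median of all probes moves from -0.47 to 0.55. In surviving against sham that median moves from -0.43 to 0.55, and Camk2b, Camk2g, Ppp3cb and Ppp3r1 cross 0 under at least 1 scaling.

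Against sham, surviving neurons had 4791 of 26909 probes past the threshold, 1741 higher and 3050 lower, with a median over all of -0.43. Of the 7 lead probes 0 were called higher, beside 6.47% of all probes tested, and 1 was called lower, Ppp3ca, beside 11.3%, and 4 of 7 had both surviving arrays below both sham arrays (Camk2b, Camk4, Ppp3ca and Ppp3r1), beside 48.9% of all. Both shares are near those of the array. Ppp3ca fell by 2.01 (SE 0.56, 95% interval -3.29 to -0.74, adjusted p 0.0425), or -1.59 relative to the shift, lower in 2 of 2 arrays. It was not called once either sham array or either surviving array was left out, with differences from -2.38 to -1.64. In each of these runs fewer probes of the whole array were called too. Ppp3ca was also not called under the 75th percentile, under quantile normalization, under the median of the probes marked above background on every array (the detected-probe median), in the deposited series values or with normexp. It stayed negative in every alternative, with adjusted p from 0.00272 to 0.98. Camk4 was at -1.47 (adjusted p 0.0844) and also stayed negative throughout, from -1.85 to -0.41. Ppp3r1 (-1.15, adjusted p 0.179), Camk2b (-0.96, adjusted p 0.294) and Ppp3cb (-0.45, adjusted p 0.649) were negative under the array median and changed sign under at least 1 other scaling. The median of all probes moved too, from -0.43 to 0.35 under the 75th percentile, 0.18 under quantile and 0.55 under the detected-probe median. It was 0.45 with series values and 0.09 with normexp, so a change of sign restates in part this common shift. For Camk2g, at -0.02, the sign turned under all 5 other scalings, with 0.76 under the 75th percentile. Camk2a was at 0.14, with 0.91 under the 75th percentile, 1.10 under quantile normalization and 1.11 under the detected-probe median. It was at 0.85 with normexp and 1.02 with series values, and passed under none of these.

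The comparisons with sham share the sham arrays, so their values are given side by side and no relation between them is drawn. Relative to the median of all probes, Ppp3ca was at -1.59 in surviving and -2.31 in dying neurons, and Camk4 at -1.05 and -1.30. Camk2a was at 0.56 and -1.44, Camk2g at 0.41 and -1.63, and Ppp3cb at -0.02 and -1.07.

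Sham against naive gave 0 of 20679 probes past the threshold with limma and 1005 with an unadjusted p under 0.05, with a median of 0.41. Differences of the 7 lead probes ran from -0.01 for Camk2g to 0.68 for Camk2b, with adjusted p of 0.851 or more. Both sham arrays lay above both naive arrays for 3 of 7 (Camk2b, Ppp3ca and Ppp3r1), beside 38.5% of all probes. The signs of Camk2a, Camk2g, Camk4 and Ppp3cb turned under at least 1 scaling, while the median of all probes ran from -0.05 to 0.59 over the scalings. Of the other probes, Camk2a AB056125 was higher by 1.21 in sham, with an adjusted p of 0.851.

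The rest of the calcium and calmodulin machinery was read from 6 lists of genes, of which 64 of 68 were found. In dying against sham 52 of them could be tested, 19 were called lower and 4 higher, beside 28.6% and 14.7% of all probes, and their median was -1.38. Fewer were called with either sham array or dying replicate 1 left out, as was so over the whole array. Their medians were then -1.32 without sham replicate 1, -1.40 without sham replicate 2 and -1.13 without dying replicate 1. Under the 75th percentile 12 were called lower and 5 higher, beside 18.8% and 27.3% of all probes. With normexp the calls were 0 and 0, beside 0% of all. The median of the tested list genes remained negative under the 75th percentile, at -0.66, and with normexp, at -0.99. In surviving against sham 5 of 59 were called lower and 3 higher, beside 11.3% and 6.47% of all probes. These calls were lost once a sham or a surviving array was left out, runs in which fewer probes of the whole array were called too. The median of these list genes, -0.61, turned positive under the 75th percentile (0.17), quantile (0.12), detected-probe (0.37), series (0.27) and normexp (0.18) values. The median of all probes, -0.43, turned positive under each as well, at 0.35, 0.18, 0.55, 0.45 and 0.09 in that order.

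In the CaM kinase cascade, which holds kinases upstream of and parallel to CaMKIV and inhibitors of CaMKII, 4 of 7 genes tested were called lower in dying neurons against sham, beside 28.6% of all probes, with a median of -1.74 beside -0.47 for all. The 4 became 1 under the 75th percentile, quantile, detected-probe and series values, beside 18.8%, 15.9%, 14.9% and 16.9% of all probes called lower. With normexp they became 0, beside 0% of all. In dying against sham these shares stand beside the calls of the lists that follow too. Camkk1, an activator of CaMKIV, read 7.02 and 7.89 on the naive arrays, 8.59 and 7.88 on sham, 6.49 and 6.39 on surviving and 3.40 and 5.63 on dying arrays. The order was sham or naive, then surviving, then dying with no overlap between surviving and dying, and dying against sham was -3.72 (adjusted p 0.0065). Camk1 (-2.37), Pnck (-1.74) and Camk1g (-1.51), kinases of the CaMKI group, were the other 3. Camk2n2, which encodes an inhibitor of CaMKII, was well above background in both surviving arrays (-0.11 and 0.37) and in no sham array, and was called at least 1.28-fold higher in surviving neurons than in sham. It was tested because of the surviving arrays alone, was not tested where both groups had to be above background, and kept its call with no filter on dim probes.

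Among calmodulin and the proteins that bind it or sense calcium, 5 of 11 were called lower in dying neurons against sham, beside 28.6% of all probes, with a median of -1.48, and 4 under the 75th percentile, quantile, detected-probe and series values and 0 with normexp. Calm2, 1 of the calmodulin genes, read 9.70 and 10.37 on the naive arrays, 10.65 and 10.28 on sham, 8.91 and 8.77 on surviving and 7.26 and 7.79 on dying arrays. Its surviving arrays lay between the sham and the dying arrays, and dying against sham was -2.94 (adjusted p 0.00343), with the calcium sensor Vsnl1 at -2.72 and Gap43 at -2.05. Against sham, surviving neurons had 3 of 11 called lower, beside 11.3% of all probes. The 3 became 0 under the 75th percentile, quantile, detected-probe, series and normexp values, beside 5.68%, 5.71%, 4.75%, 5.36% and 0% of all. Among the 3 were the calcium buffer Calb1, a gene the study also picked on these arrays, at -3.18 and Vsnl1 at -1.65. Pcp4, a small modulator of calmodulin, went the other way between the injured groups, with 6.85 and 7.57 on the surviving arrays and 10.51 and 9.98 on the dying arrays, beside 8.77 and 10.43 on sham and 10.78 and 9.28 on naive arrays. That difference of -3.03 did not pass (adjusted p 0.119).

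In the list of further calcineurin subunits, regulators and NFAT factors, 4 of 9 were called lower and 2 higher in dying neurons against sham, beside 28.6% and 14.7% of all probes, with a median of -2.11. The 4 became 3 under the 75th percentile and quantile and 2 under detected-probe and series values. In each of these 2 were higher, beside 27.3%, 20.5%, 32.6% and 28.7% of all probes. With only genes well above background on all arrays of both groups, 5 were tested, 2 called lower and 1 higher. The shares of all probes were then 36.9% and 6.64%, and the list median was -0.32 beside -0.91 for all. With normexp 0 were called and the median was -0.35 beside -0.28. Chp1, a calcineurin-like calcium-binding protein, was lower at -2.92 and Ppp3cc, another catalytic subunit gene, at -2.71. Ppp3cc read -0.04 and 2.38 on the naive arrays, 1.42 and 1.46 on sham, 1.48 and 1.09 on surviving and -1.49 and -1.06 on dying arrays. It was well above background on only 1 of 2 dying arrays, so its differences from them, -2.71 against sham and 2.56 for surviving minus dying (adjusted p 0.135), rest in part on a signal that was not well above background. It too is a gene the study picked on these arrays. Nfatc4, a calcineurin target, read 0.82 and 0.50 on the naive arrays, 1.83 and 0.89 on sham, 2.61 and 1.05 on surviving and 4.24 and 3.87 on dying arrays, highest in both dying arrays, and was higher by 2.70 in dying neurons than in sham (adjusted p 0.0111). Nfat5, an NFAT relative without a calcineurin-binding region, was well above background in no sham array and was at least 1.82-fold higher in dying and at least 1.70-fold higher in surviving neurons. It too was tested because of the injured groups alone, was not tested where both groups had to be above background, and kept both calls with no filter on dim probes.

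Downstream of CaMKII, none of 9 substrates and synaptic partners tested was called lower in dying neurons against sham and 2 were called higher, beside 28.6% and 14.7% of all probes, with a median of 0.23. Under the 75th percentile, quantile, detected-probe and series values 3, 1, 5 and 3 were called higher, beside 27.3%, 20.5%, 32.6% and 28.7% of all probes, with medians of 0.95, 0.78, 1.24 and 0.78 beside 0.25, 0.21, 0.55 and 0.34 for all, and with normexp 0 were and the median was -0.06. With only genes well above background on all arrays of both groups, 6 were tested, 1 called lower and 1 higher, beside 36.9% and 6.64% of all probes. The list median was then -0.41 beside -0.91 for all, while with normexp the median of all probes was -0.28. Rgs14, a regulator of G-protein signalling, was higher by 1.76, and the synaptic vesicle protein gene Syn1, well above background in no sham array, at least 2.20-fold higher in dying and at least 3.62-fold in surviving neurons. Syn1 was likewise tested because of the injured groups alone, and with no filter on dim probes its call remained in surviving and was lost in dying neurons. Downstream of CaMKIV, 1 of 6 CREB-related genes was called lower, beside 28.6% of all probes. The list median of -1.08 was 0.08 under quantile normalization, beside 0.21 for all probes. That gene, Bdnf, read 2.16 and 2.47 on the naive arrays, 3.01 and 2.92 on sham, 0.71 and 0.41 on surviving and -1.09 and -1.04 on dying arrays. Its 4 groups did not overlap, dying against sham was -4.04 (adjusted p 0.000999) and surviving against sham -2.41 (adjusted p 0.0134), while surviving against dying was 1.63 with an adjusted p of 0.13. Bdnf is also a gene the study picked on these arrays. Downstream of calcineurin, 5 of 10 substrates and protein phosphatase 1 genes were called lower in dying neurons and 0 higher, beside 28.6% and 14.7% of all probes, with a median of -1.66. The 5 became 3 under the 75th percentile and series values, 1 under quantile (median -0.82) and detected-probe scaling (median -0.65) and 0 with normexp. Ppp1cb, a catalytic subunit of protein phosphatase 1, was at -2.93 in dying and -2.10 in surviving neurons against sham, and Synj1 (-2.26), Dnm1 (-2.04) and Ppp1r9b (-1.98) were lower in dying neurons.

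**Figure D4:**
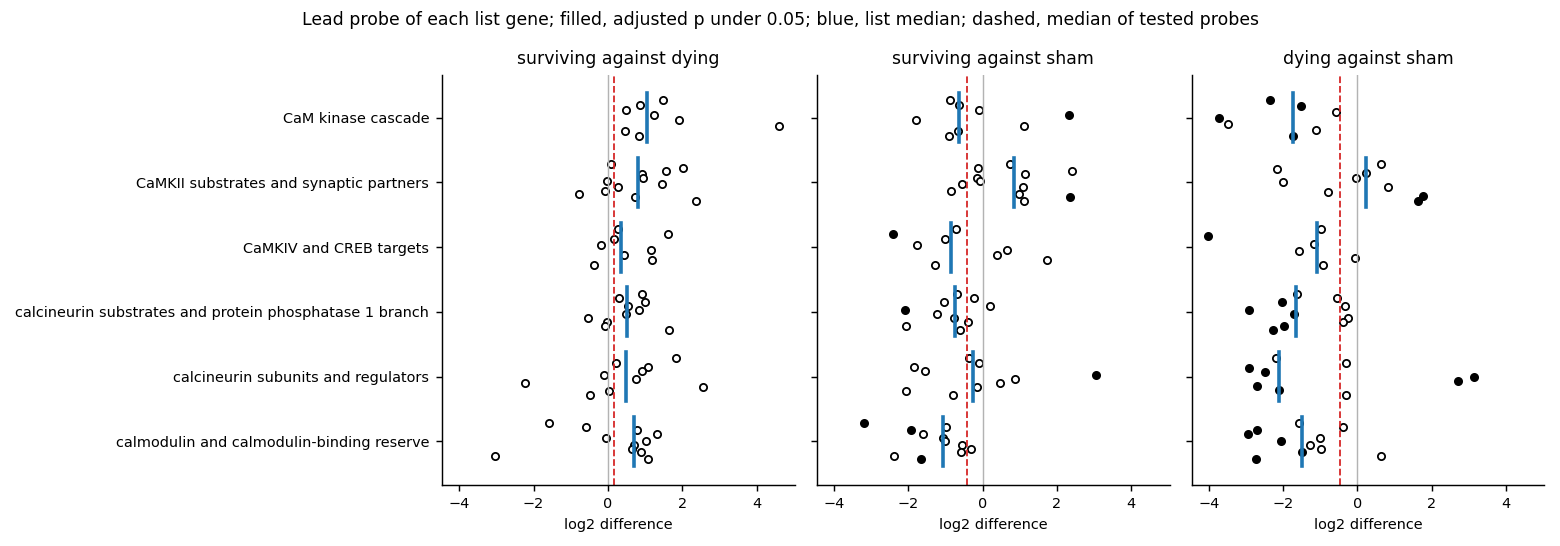
Log2 difference (horizontal axis) of the lead probe of each tested gene in 6 lists (vertical axis) for 3 comparisons, filled where the adjusted p was under 0.05, with a blue bar for the list median and a dashed line for the median of all probes tested. In dying against sham 5 of 6 list medians lie below the dashed line at -0.47, from -2.11 to -1.08, and CaMKII substrates lie above it at 0.23. The CaMKIV and CREB median crosses 0 under quantile normalization (0.08, beside 0.21 for all probes), and so does that of CaMKII substrates with normexp (-0.06, beside -0.28). With only genes well above background on all arrays of both groups, the median of all probes is -0.91. That filter puts the median of CaMKII substrates at -0.41 and moves the calcineurin median from -2.11 to -0.32.

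In surviving against dying no gene of any of the 6 lists passed in limma, of 59 tested. The list medians were 1.06 for the CaM kinase cascade, 0.71 for calmodulin and its reserve, 0.49 for calcineurin regulators, 0.82 for CaMKII substrates, 0.35 for CREB-related genes and 0.51 for the protein phosphatase 1 branch, beside 0.15 for all probes. With only genes well above background on all arrays of both groups, the median of calcineurin regulators turned to -0.03 and that of CaMKII substrates became 0.26, beside 0.03 for all probes. The smallest p-values belonged to Pcp4 (-3.03), Bdnf (1.63), Nfatc4 (-2.23) and Ppp3cc (2.56, well above background on 1 of 2 dying arrays), all with both surviving arrays on 1 side of both dying arrays. Without dying replicate 2, 7 of 58 list genes were called higher and 1 lower, beside 10.8% and 9.09% of all probes.

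Signals of marker genes of other cell types also differed between the same groups. The summed signal of 10 microglia and macrophage markers, to which the probe of C1qb contributed the most, was 123 and 260 on the naive arrays, 269 and 247 on sham, 317 and 345 on surviving and 1974 and 1078 on dying arrays, and 5 of 8 tested were called higher in dying neurons against sham. The dying arrays were the highest, and replicate 1, where most member genes were lowest, was the higher of the pair. Of 8 oligodendrocyte markers, 4 were called lower in dying neurons against sham and 0 higher, with a median of -1.56. Over 7 astrocyte markers, with Slc1a3 contributing the most, the summed signal was 821 and 1016, 1468 and 926, 491 and 510, and 1209 and 538 in naive, sham, surviving and dying neurons in turn, with 2 of 6 called lower. Over 6 interneuron markers, with Npy contributing the most, it was 371 and 705, 563 and 620, 470 and 439, and 1749 and 444, with 2 of 6 called lower. Over 5 of 6 endothelial markers, with Vwf contributing the most, it was 36.5 and 59.7, 59.8 and 47.2, 42.5 and 36.3, and 155 and 85.7, with 2 of 4 called higher and Tek well above background on no array. Of the 9 pyramidal markers, 3 were called lower in dying neurons against sham and 0 higher, with a median of -2.86. In this comparison 28.6% of all probes were called lower and 14.7% higher. In surviving neurons against sham, where 11.3% of all probes were called lower and 6.47% higher, 3 of 8 oligodendrocyte markers (median -1.51), 2 of 8 pyramidal, 1 of 6 astrocyte and 1 of 6 interneuron markers were called lower, 1 of 4 endothelial markers was called higher and 0 of 9 microglial markers passed in limma, 2 of them higher with an unadjusted p under 0.05 and 1 lower. The part of these shifts in the differences of the kinase and calcineurin genes was not tested.

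**Figure D5:**
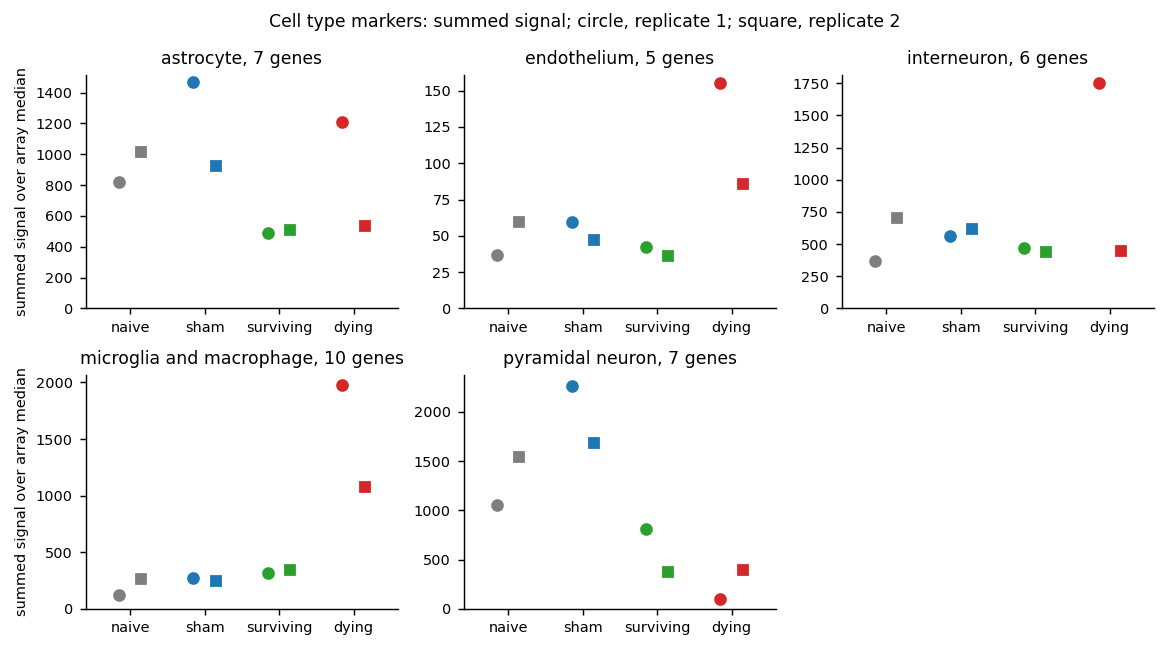
Summed signal over the array median (vertical axis) of the markers of 5 cell types by group (horizontal axis), with a circle for replicate 1 and a square for replicate 2. Microglial markers are highest in the dying arrays (1974 and 1078) and pyramidal markers are lowest in dying replicate 1 (99.96).

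Across the 8 arrays the lead probes of the members varied together to different degrees. Pearson's r between pairs ran from 0.54 for Camk2a with Camk4 to 0.984 for Camk2b with Ppp3r1, over 8 points that share groups, slides and array scaling, and it is given as a description only. Camk4 and Ppp3ca had r of 0.872 with each other, and Camk2a and Ppp3cb had 0.921. Among 9162 other named probes so marked on every array, the probe most like that of Ppp3r1 was Cntnap1 (r 0.997), most like Ppp3ca was Spire1 (r 0.996), most like Camk4 was Phf5a (r 0.995) and most like Ppp3cb was Vps4a (r 0.991). Among 9161 such probes, Rnmt was most like Camk2b (r 0.997) and Ipmk most like Camk2a (r 0.99), while for Camk2g it was LOC689427 (r 0.983) among 9162. The next nearest were LOC687464 and RGD1565423 for Camk2a, Psap and Rars for Camk2b, Mal2 and Ngrn for Camk2g, Faf1 and Gosr2 for Camk4, Cyb5b and PRP-2 for Ppp3ca, Mapt and Paf1 for Ppp3cb, and H3f3b and Prps2 for Ppp3r1.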

How the data were processed

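RNA of laser-captured CA3 neurons was measured on 8 arrays, 2 per group. The authors deposited processed intensity values of each spot, made with Agilent Feature Extraction 9.1.3.1 per the file headers by subtracting background and trends within the array, with no normalization between arrays. The mean intensity of a spot and the median intensity of its background were deposited uncorrected. Apart from columns that name, describe or classify a probe, the other columns used here are marks of 0 or 1. The deposited series table holds signal values that the authors made by dividing by 1 constant per array. Spots marked as non-uniform were dropped here, the remaining spots of each probe averaged, and the log2 taken of the ratio to the array median with a floor of 0.01. limma 3.58.1 in R 4.3.3 fitted the 4 groups to 8 arrays (4 residual degrees of freedom), with two-sided p-values adjusted by Benjamini-Hochberg over all probes that the scanner software marked above background on 2 of 2 arrays in either group compared, and a threshold of 0.05. The code was tested on simulated data.

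From each list, up to 4 genes past the threshold with the largest difference, or with the smallest p where none passed, were named, and the 3 probes most alike. For a group without any array marked above background, a fold given as at least a value is taken over the lowest signal so marked on those arrays. It is not a strict bound, since a signal that is not marked can exceed that level. A_44_P149148 of Ppp3r1 did so on sham replicate 2. Gene symbols of RefSeq were matched to 10726 probes. The members and lists were chosen with earlier results of these data known. Alternatives changed the scaling, background correction, filter, spread, probe choice, replicate block and each array in turn. Comparison columns made by the authors were not used. Some results are not reported here.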

Additional observations from a re-analysis of the deposited data

How the results depend on the processing

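Of 686 differences of the 7 lead probes under the alternatives, 593 kept their sign and their side of the threshold, 49 lost and 10 gained a call, and 34 changed sign. Every change of sign concerned a difference that had not passed the threshold. The cause of each change was not tested.

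In surviving against sham, the sign of Camk2g turned to 0.76 under the 75th percentile, 0.78 under quantile normalization, 0.96 under the median of probes well above background on all 8 arrays, 0.62 with normexp (offset 50), 0.86 with the deposited series values, 0.13 without sham replicate 2 and 0.63 without surviving replicate 2 (from -0.67 to 0.63 with 1 array left out). In the same order of the first 5 settings Ppp3cb turned to 0.33, 0.42, 0.52, 0.46 and 0.43. Camk2b turned to 0.02 under the detected-probe median, 0.25 with normexp and 0.45 with the mean of all its probes, and Ppp3r1 to 0.07 with normexp. Camk2a turned to -0.03 without sham replicate 2 and -0.08 without surviving replicate 1. In surviving against dying, Camk4 turned to -0.08 without surviving replicate 1 (up to 0.67 with another left out) and Ppp3r1 to -0.06 with the mean of its probes. In sham against naive, Camk2a turned to -0.04, -0.19, -0.20 and -0.10 under the 75th percentile, quantile, detected-probe and series values and -0.41 without naive replicate 1 (up to 0.93). There Camk4 turned to -0.15 under quantile, -0.15 under the detected-probe median, -0.05 with series values and -0.16 without naive replicate 1, Ppp3cb to -0.09 under the detected-probe median and -0.36 without naive replicate 1 (up to 1.10), and Camk2g to 0.26 with normexp, 0.58 without naive replicate 2 and 0.14 without sham replicate 1 (down to -0.61).

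The number of lead probes called lower in dying against sham, 5, became 2 under the 75th percentile, detected-probe median and series values, 1 under quantile normalization, 0 with normexp, 3 with array weights and 2 with the mean of all probes of a gene (Camk2g and Camk4, which have 1 probe each), and ran from 0 to 6 with 1 array left out. In surviving against sham the count was 1, beside 11.3% of all probes. It became 0 under the 75th percentile, quantile, detected-probe, series and normexp values, beside 5.68%, 5.71%, 4.75%, 5.36% and 0%. It was also 0 with no filter on dim probes, beside 7.50%, and with the mean of all probes of a gene. With a trend of the spread it was 2, beside 14.2%, and with array weights 3, beside 31.6%. It also changed with 1 array left out, as did the count over the whole array. In surviving against dying and in sham against naive no lead probe was called in any setting that kept both arrays of each group compared. Without dying replicate 2 calls appeared in surviving against dying, among lead probes and over the whole array.

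Over the array, 2 probes passed in surviving against dying with the series values, and 0 to 5620 with 1 array left out. In surviving against sham 4791 became 0 with normexp (2494 unadjusted), 2865 with only probes marked above background on every array compared, and 13425 with array weights, and ran from 289 without sham replicate 1 to 8081 without either dying array. In dying against sham 11101 became 0 with normexp and 7039 with that filter, and ran from 2984 without sham replicate 1 to 13097 without dying replicate 2. In sham against naive 0 became 1 under quantile normalization, 1 with array weights and 292 with only the 4 arrays of the slide, and ran from 0 to 42. By the filter modelled on the methods, in surviving against dying, 1056 became 2451 with replicates within 2-fold and 303 with normexp. The count ran from 1545 to 6652 with 1 surviving or dying array left out, which also left no limit on replicates in that group. Probes meeting the limit rose from 5693 to between 7687 and 17136 in those runs. The range therefore includes the effect of a looser filter and does not show that of the array alone.

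The split of calls moved with the scaling. In dying against sham 3763 were higher and 7338 lower under the array median, 6984 and 4817 under the 75th percentile, 5259 and 4086 under quantile, 8358 and 3830 under the detected-probe median and 7360 and 4326 with series values. In surviving against sham the pairs were 1741 and 3050, 4143 and 1529, 2241 and 1537, 5117 and 1279, and 4409 and 1443. The medians of all probes tested in surviving against sham were -0.43, 0.35, 0.18, 0.55 and 0.45 in that order.

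With replicate number as a block, 0 probes passed in surviving against dying, 3356 and 10325 in surviving and dying neurons against sham, and 0 in sham against naive, and 5409 of the first had an unadjusted p under 0.05. The labels do not say that equal numbers are paired, and deviations of same-numbered surviving and dying arrays had r of -0.195 across 15254 probes, which are not independent. With the numbers crossed in dying, a pairing chosen after seeing the data, 0, 3555, 10642 and 0 passed, and Ppp3ca in surviving against sham was no longer called, a count of 0.

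For named genes of the lists, 433 of 588 values kept their call and 155 lost it, with no change of sign. Of 1608 counts of called genes in these lists and in the cell type marker lists, 257 moved, by over 1.5 times or to or from 0. Leaving out population outlier spots changed nothing, as 0 were marked. Signal over background limits Camk2d and the dim probes of Camk2b, Ppp3ca and Ppp3r1, for which no difference could be shown.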
